A study of Homo sapiens with 5 samples.

Results

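The 70 genes described here carry the family names of the matrix metalloproteinases (MMP), the ADAM proteases of the cell surface, the secreted ADAMTS proteases, the ADAMTS-like proteins (ADAMTSL) and the tissue inhibitors of metalloproteinases (TIMP). In the annotation 2 of them are pseudogenes, so not all of the 70 encode a protein. They were taken by symbol: every probe whose symbol in the platform annotation was 1 of these family names followed by a number alone, so that names ending in a letter were not taken. This gave 113 probes of the 47231 on the Illumina bead array, or 70 of the 20046 genes with a symbol. By family there were 22 MMP, 21 ADAM, 18 ADAMTS, 5 ADAMTSL and 4 TIMP genes.

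The cells were MDA-MB-231, an established human line of estrogen receptor-negative, basal-type metastatic breast cancer, grown in medium with foetal serum. Cultures received 10 µM fluvastatin for 24 h, or sterile water for 24 h as the mock control. Fluvastatin is a statin: it blocks HMG-CoA reductase, the step that makes mevalonate for cholesterol and for the lipid anchors of small GTPases. All samples were of 1 cell line, and the labels list 2 fluvastatin and 3 control samples with no word on whether each was grown on its own, so a p-value here speaks of the spread among the listed arrays and that spread may be technical. Control replicate 2 equalled the mean of control replicates 1 and 3 at each of the 47231 probes to within 1e-06 and was left out, which leaves 2 fluvastatin arrays and 2 control arrays.

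Most of these proteins are zinc enzymes made as inactive precursors. MMPs are secreted or membrane-bound and cut collagens, laminins and other matrix proteins. ADAMs cut the stalks of membrane proteins and so release growth factors, cytokines and receptors, a step called shedding, while ADAMTS proteases act on proteoglycans, procollagens and microfibrils. ADAMTSL proteins share the matrix-binding modules of ADAMTS proteins but lack the protease, and TIMPs bind to the active site and inhibit it.

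All values below are log2 intensities after background correction and quantile normalization, and log2 fold changes are fluvastatin minus control. A probe was called above background on an array when its deposited detection p was under 0.05, and it was kept for testing when this held on at least 2 of the 4 arrays. Between 44.9% and 46.9% of all probes were detected on the fluvastatin arrays, against 43.0% to 46.1% on the control arrays. Of the markers of the line, 7 of 7 listed as detected (among them VIM, CD44 and CAV1) were above background on all 4 arrays, and ESR1, PGR, CDH1 and FOXA1 were on 0 of 4. ERBB2, KRT8, EPCAM and GATA3, listed as dim, were detected on all 4. The fibroblast markers COL3A1, DCN and PDGFRA and the leukocyte markers PTPRC and CD3E were on 0 of 4, although PDGFRB and CD14 were detected. The smallest adjusted p among these markers was 0.0529, for LGALS1. Before normalization the summed intensity of the 7 markers listed as detected was 75841 to 87161, against 47684 to 62628 on the control arrays, while the median intensity of all probes was 74.2 and 81.7, against 74.0 and 72.7. RNA came from whole cultures, so fewer cells that express a gene and less RNA per cell cannot be told apart.

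Most of the family was at background in both conditions. Of the 113 probes 35 (31.0%) were kept, covering 26 of the 70 genes, against 46.5% of all probes. Of the 78 dim probes, 64 were detected on 0 arrays and 14 on 1 array. All 4 TIMP genes were kept, as were 8 of 22 MMP genes, 8 of 21 ADAM genes, 3 of 18 ADAMTS genes and 3 of 5 ADAMTSL genes. Both gelatinases, MMP2 and MMP9, were detected on 0 of 4 arrays, and so were ADAMTS1, the stromelysin MMP10, matrilysin (MMP7), the collagenases MMP8 and MMP13 and the aggrecanase ADAMTS5. A probe at background shows only that these arrays did not measure the transcript.

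Of the 35 probes kept, 9 (25.7%) passed the threshold, 7 of them higher and 2 lower with fluvastatin. Over all 21986 probes kept the share was 16.9%, with 8.64% higher and 8.29% lower. MMP28 and MMP24 met the filter through the fluvastatin arrays alone. MMP11 needed the fluvastatin arrays to meet it, and the ADAMTSL1 probe that fell needed the control arrays. The count was therefore also taken over probes detected on all 4 arrays: 6 of 26 member probes (23.1%) passed, against 18.2% of all such probes. By gene, each taken at its probe with the highest mean, 8 of 26 members (30.8%) passed, against 20.1% of all genes: ADAMTS9, ADAM17, MMP11, MMP28, ADAM8 and TIMP2 rose and ADAMTS6 and ADAMTSL1 fell. The median log2 fold change over the 35 probes was 0.19, against 0.00216 over all probes kept. At least 2-fold changes past the threshold were found for 6 of the 35 (17.1%), against 8.01% of all probes. The 6 include MMP28 at its measured difference, which is not an established 2-fold change because its control values were at background. They also include MMP11 and ADAMTSL1, each with 1 array of its lower group at background. The fluvastatin arrays lay wholly above or below the control arrays for 22 of the 35 (62.9%), close to the 64.7% of all probes kept. They lay above for 15 of the 35, against 32.8% of all probes kept, and below for 7 of the 35, against 31.8%. The counts rest on which arrays were used. Leaving out either control array lowered them sharply, over all probes kept as well as among members. Leaving out fluvastatin replicate 2 raised both counts, and leaving out fluvastatin replicate 1 changed both little.

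**Figure D1:**
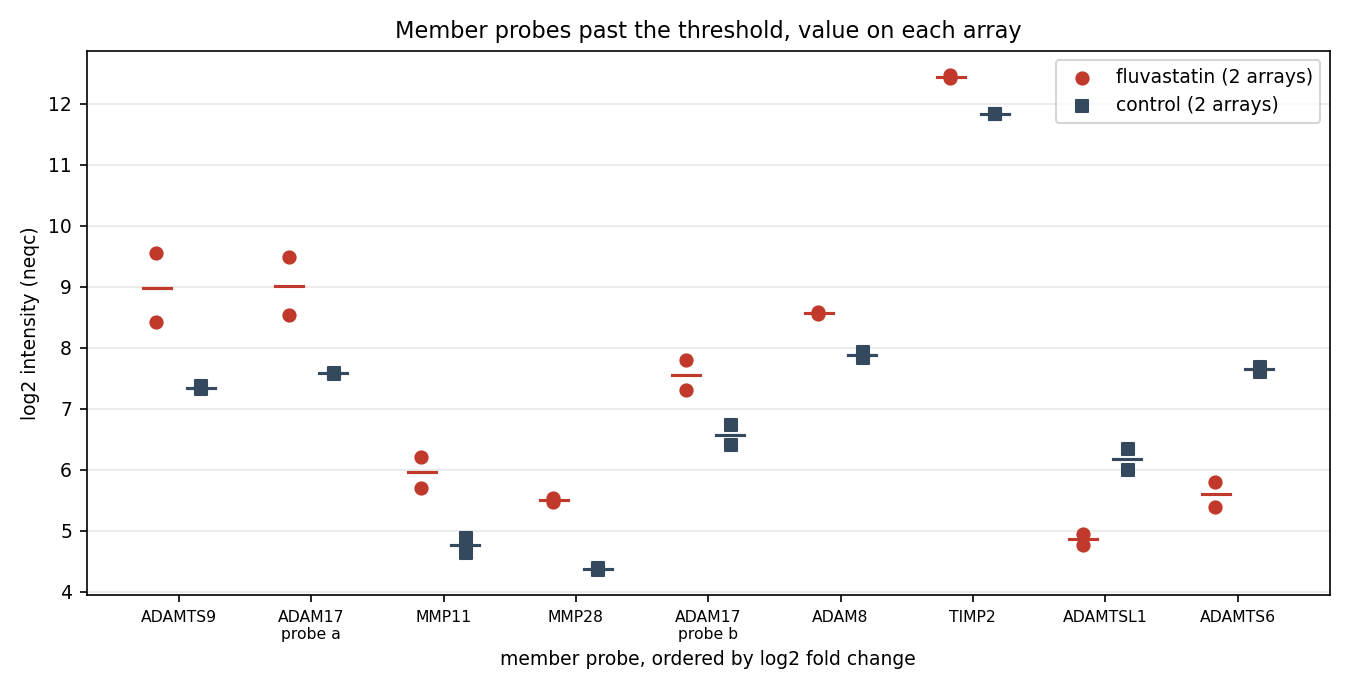
Log2 intensity (vertical axis) of the 9 member probes past the threshold, ordered from the largest rise to the largest fall. Circles are the 2 fluvastatin arrays, squares the 2 control arrays and bars the group means. The groups do not overlap for any of the 9, and the circles of ADAMTS9 (9.55 and 8.42) and of ADAM17 probe a (9.49 and 8.53) lie far apart while their control squares nearly coincide.

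The lowest and the highest log2 fold change of the 35 probes were those of the ADAMTS proteases ADAMTS6 and ADAMTS9. ADAMTS6, a relative of ADAMTS10 that acts on fibrillin microfibrils, had log2 intensities of 5.80 and 5.40 on the fluvastatin arrays, against 7.60 and 7.69 on the control arrays. Both treated values were well below both controls, and all 4 arrays were above background. Its log2 fold change was -2.04 ± 0.19 (SE, adjusted p = 0.00749), a 4.12-fold lower signal. It passed under each of the 14 other settings tried, which include each array left out, with log2 fold changes of -2.22 to -1.22. The other 8 called probes each missed the threshold under at least 1 setting.

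ADAMTS9, which cleaves the proteoglycans versican and aggrecan, moved the other way. Its values were 9.55 and 8.42 with fluvastatin, against 7.32 and 7.38 in controls. Each treated array exceeded both controls, but fluvastatin replicate 1 lay 1.13 above replicate 2, whereas the controls differed by 0.06. The log2 fold change was 1.64 ± 0.37 (adjusted p = 0.0370), or 3.12-fold. It was 1.09 from fluvastatin replicate 2 alone and 2.21 from replicate 1 alone. The adjusted p was 0.0955 without control replicate 1, 0.100 without control replicate 3 and 0.0930 with no filter on dim probes. ADAMTS4, an aggrecanase, was the only other ADAMTS gene kept. Its values, 4.94 and 4.95 with fluvastatin against 4.74 and 5.06 in controls, overlapped near background (log2 fold change 0.05, with a 95% interval from -0.39 to 0.48).

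Among the ADAMTS-like genes, ADAMTSL1 (punctin) fell on 1 of its 2 kept probes. That probe read 4.95 and 4.76 with fluvastatin, against 5.99 and 6.35 in controls. Both treated values were near background, which 1 of the 2 fluvastatin arrays exceeded, and both lay below the controls (log2 fold change -1.31 ± 0.19, adjusted p = 0.0150). The adjusted p was 0.0890 without control replicate 3, and the change was -0.64 without background correction. The other kept probe, detected on 1 array of each group, gave -0.13 ± 0.15 (adjusted p = 0.572), and the platform annotation ties the 2 probes to different transcripts. ADAMTSL4, a fibrillin-binding protein, gave -0.05 (95% interval -0.47 to 0.36) and -0.38 (-0.84 to 0.08) on its 2 kept probes, and ADAMTSL5 gave 0.42 (-0.09 to 0.93). None of these 3 probes passed.

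ADAM17, the tumour necrosis factor converting enzyme and main sheddase of EGF receptor ligands, was higher with fluvastatin on each of its 3 probes. The first probe read 9.49 and 8.53 with fluvastatin, against 7.58 and 7.59 in controls (log2 fold change 1.42 ± 0.32, adjusted p = 0.0373). The second read 7.79 and 7.31 with fluvastatin, against 6.40 and 6.74 in controls (0.98 ± 0.23, adjusted p = 0.0406). On both, each treated array exceeded both controls. The third, designed on an expressed sequence tag, read 7.04 and 6.38 with fluvastatin, against 5.83 and 5.66 in controls. Its log2 fold change of 0.97 ± 0.25 lay just outside the threshold (adjusted p = 0.0530) and passed in 6 of 10 other processing settings. On all 3 probes fluvastatin replicate 1 was the higher of the treated arrays, by 0.95, 0.48 and 0.67. For the first probe the adjusted p was 0.104 without control replicate 1 and 0.119 without control replicate 3. For the second it was 0.216 and 0.118 without the same arrays, and 0.0769 without fluvastatin replicate 1. With no filter on dim probes neither passed (adjusted p = 0.0899 and 0.0801).

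ADAM8, a sheddase best known from leukocytes, also rose. It read 8.56 and 8.58 with fluvastatin, against 7.93 and 7.83 in controls. The treated arrays differed by 0.03 and lay above both controls (log2 fold change 0.69 ± 0.15, adjusted p = 0.0358). The adjusted p was 0.216 without control replicate 1 and 0.289 without control replicate 3.

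ADAM10, the sheddase of Notch receptors and many adhesion molecules, did not pass on either probe. The probe with the higher mean read 9.34 and 9.50 with fluvastatin, against 9.40 and 9.18 in controls, so the groups overlapped. Its log2 fold change was 0.13, with a 95% interval from -0.29 to 0.55. The second probe gave -0.02 (-0.75 to 0.71), with fluvastatin replicate 2 0.86 above replicate 1. The difference between the changes of ADAM17 and ADAM10 was not tested.

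ADAM15, a disintegrin that binds integrins, had 4 kept probes whose changes ran from -0.05 to 0.70. The largest was on a probe that read 8.55 and 8.14 with fluvastatin, against 7.68 and 7.60 in controls, without overlap (0.70 ± 0.19, adjusted p = 0.0607). It passed in 7 of 10 other processing settings, among them the fit that adds control replicate 2, a mean, as a sample. It missed the threshold without control replicate 1, control replicate 3 or fluvastatin replicate 1 (log2 fold changes 0.73, 0.66 and 0.50). Without fluvastatin replicate 2 it passed (0.91). A second probe, tied by the annotation to the same transcript, read 11.93 and 12.27 with fluvastatin against 11.93 and 12.10 in controls. That probe gave 0.08 ± 0.19, so probes assigned to 1 transcript differed in their estimate, and the difference between them was not tested.

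ADAM19, a meltrin that sheds neuregulin, was the ADAM probe with the lowest log2 fold change. It read 9.34 and 9.11 with fluvastatin, against 9.82 and 9.92 in controls, with no overlap. The value of -0.65 ± 0.17 narrowly missed the threshold (adjusted p = 0.0516). It passed in 7 of 10 other processing settings, among them the fit that adds control replicate 2, a mean, as a sample. It missed the threshold without control replicate 1, control replicate 3 or fluvastatin replicate 2 (log2 fold changes -0.69, -0.59 and -0.54). Without fluvastatin replicate 1 it passed (-0.77). ADAM9, another membrane sheddase, overlapped between the groups (-0.20, 95% interval -0.72 to 0.33). ADAM12, a sheddase of EGF receptor ligands (-0.39, adjusted p = 0.229), and ADAM22, a brain receptor without protease activity (-0.37, adjusted p = 0.332), each above background on 1 of 2 fluvastatin arrays and on both controls, did not pass.

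**Figure D2:**
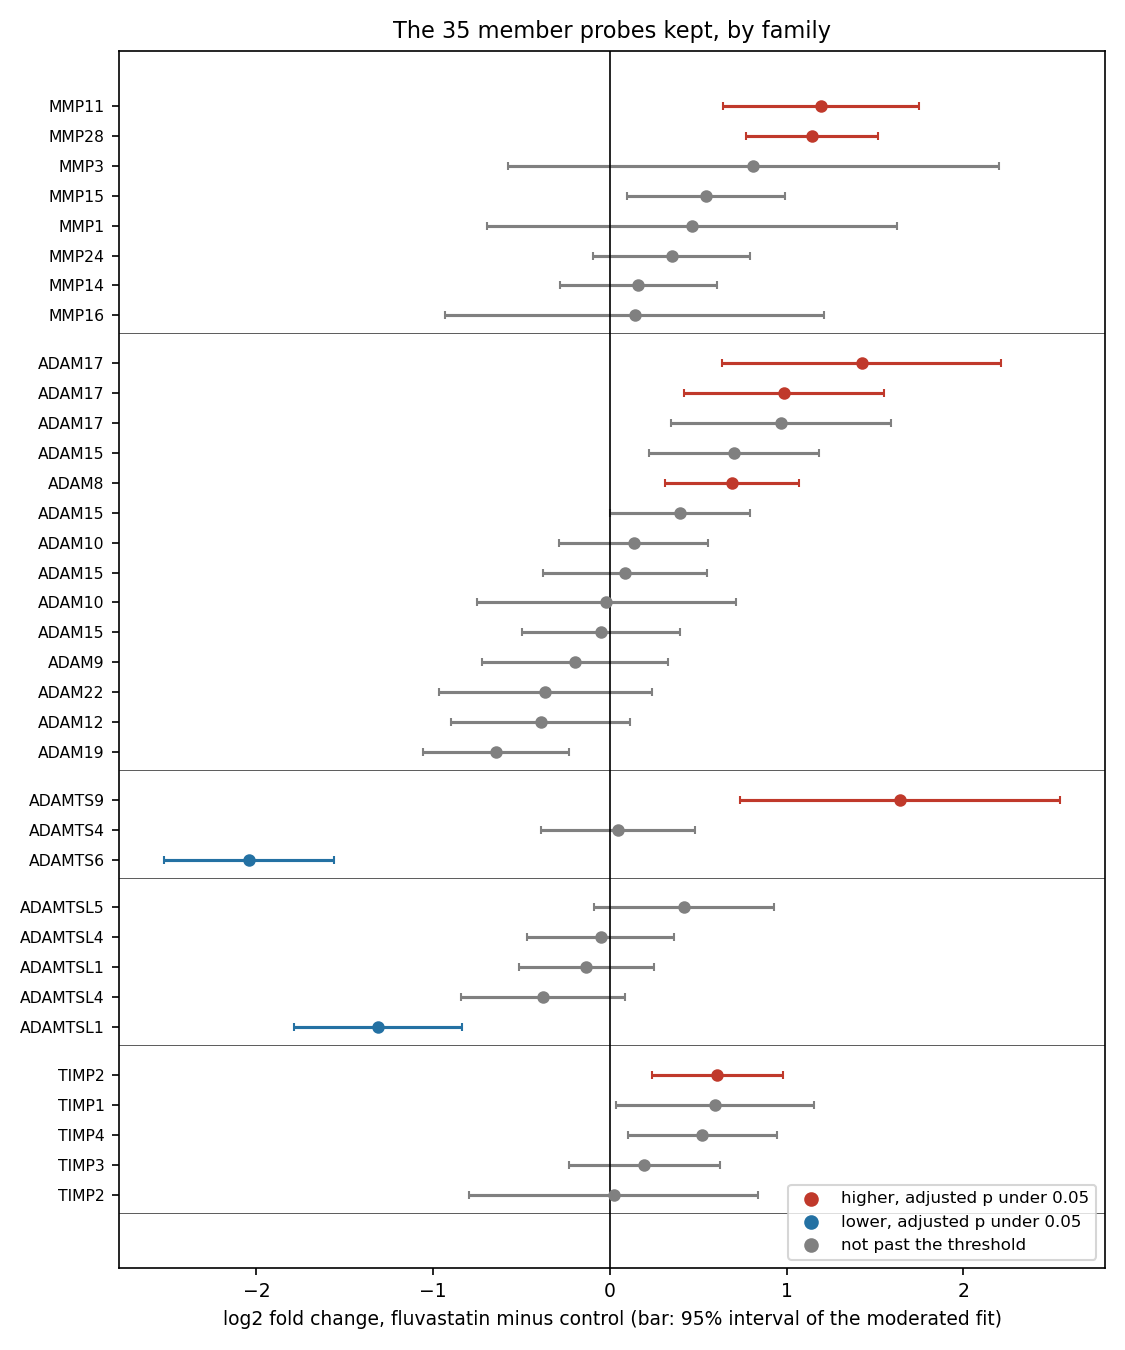
Log2 fold change, fluvastatin minus control (horizontal axis), of the 35 member probes kept, by family. Points are estimates and bars their 95% intervals from the moderated fit. The 7 rises (red) and 2 falls (blue) are spread over all 5 families, with ADAMTS9 at 1.64 and ADAMTS6 at -2.04 at the ends.

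Among the MMPs, 2 of the 8 kept probes rose and 6 did not pass. MMP11 (stromelysin-3), an enzyme of tumour stroma that is activated inside the cell by furin, read 6.21 and 5.70 with fluvastatin, against 4.88 and 4.64 in controls. It was above background on both treated arrays and on 1 of 2 controls. Without the treated arrays it would not have met the filter, so its selection and its direction are not independent. The log2 fold change was 1.20 ± 0.22 (adjusted p = 0.0247), but 0.57 without background correction and 0.50 with the authors' processed values. The adjusted p was 0.0754 without control replicate 1, 0.126 without control replicate 3 and 0.0512 with no filter on dim probes.

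MMP28 (epilysin), first known from skin and testis, was detected on both fluvastatin arrays and on 0 of 2 control arrays. Of its 3 probes 1 was kept, through the treated arrays alone, so its selection and its direction are not independent. It read 5.54 and 5.48 with fluvastatin, against 4.38 and 4.35 in controls. Since the control values were not well above background, the rise is given as a bound, the treated mean against the lowest signal of any detected probe on each control array or the probe's own value, whichever was higher. On this reckoning MMP28 was at least 1.51-fold higher with the offset of 16. The bound holds for that setting alone, since the measured log2 difference was 1.14 there but 0.54 with an offset of 50 and 0.59 with the authors' processed values. The adjusted p of the fit, 0.0130 (0.0785 and 0.0840 without control replicates 1 and 3), follows a filter that the fluvastatin arrays alone met, and supports nothing beyond the values. The other 2 probes, tied to another transcript, were detected on 1 array and on 0 arrays.

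The interstitial collagenase MMP1 and the stromelysin MMP3 differed widely between the fluvastatin arrays. MMP1 read 6.70 and 5.44 with fluvastatin, against 5.20 and 6.02 in controls. MMP3 read 7.00 and 5.20 with fluvastatin, against 5.44 and 5.14 in controls. For both genes fluvastatin replicate 1 was the highest array, while replicate 2 lay between the controls. The log2 fold changes, 0.47 ± 0.47 for MMP1 and 0.81 ± 0.56 for MMP3, were within the spread of the replicates (adjusted p = 0.516 and 0.348), and their 95% intervals ran from -0.69 to 1.62 and from -0.58 to 2.20. The MMP3 change was -0.08 without fluvastatin replicate 1 and 1.69 without replicate 2, when it passed (adjusted p = 0.0190). In the RefSeq annotation MMP1 and MMP3 are neighbours within a run of 9 MMP genes on chromosome 11, and the other 7 genes of that run (MMP7, MMP20, MMP27, MMP8, MMP10, MMP12 and MMP13) were detected on 0 arrays.

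None of the 4 membrane-type MMPs kept passed. MMP14, the main membrane-bound collagenase and activator of MMP2, read 5.42 and 5.57 with fluvastatin, against 5.19 and 5.48 in controls. These overlapped (log2 fold change 0.16, 95% interval -0.28 to 0.61). MMP15 read 6.38 and 6.03 with fluvastatin, against 5.65 and 5.66 in controls, without overlap (0.54 ± 0.18, adjusted p = 0.0923). MMP24 met the filter through the fluvastatin arrays alone and did not pass the test (adjusted p = 0.220). Its treated mean was at least 1.19-fold above the control bound, reckoned as for MMP28. MMP16 was detected on 1 array of each group (0.14, 95% interval -0.93 to 1.21).

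All 4 TIMP genes were measured on every array, and all 5 of their probes had positive estimates, but 1 of the 5 passed. TIMP2, which inhibits MMPs and also takes part in the activation of MMP2 by MMP14, read 12.46 and 12.42 with fluvastatin, against 11.84 and 11.83 in controls. The treated arrays differed by 0.04, the controls by 0.01, and the groups were clearly apart (log2 fold change 0.61 ± 0.15, adjusted p = 0.0464). Its second probe, assigned to the same transcript, read 8.10 and 9.09 with fluvastatin, against 8.55 and 8.60 in controls. Here the treated arrays lay on either side of the controls (0.02 ± 0.33, adjusted p = 0.970). The call of the first probe was lost without control replicate 1 (adjusted p = 0.281), control replicate 3 (0.320) or fluvastatin replicate 1 (0.0539).

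TIMP1, a broad inhibitor of secreted MMPs, read 13.56 and 12.99 with fluvastatin, against 12.66 and 12.69 in controls. The treated arrays were both above the controls, but 0.57 apart, and the change of 0.60 ± 0.23 did not pass (adjusted p = 0.122). TIMP4 read 7.31 and 7.04 with fluvastatin, against 6.64 and 6.68 in controls (0.52 ± 0.17, adjusted p = 0.0866). TIMP3, the matrix-bound inhibitor of ADAM17 and of aggrecanases, read 7.74 and 7.91 with fluvastatin, against 7.75 and 7.51 in controls. Its groups overlapped, and the 95% interval of its change ran from -0.23 to 0.62 around 0.19.

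**Figure D3:**
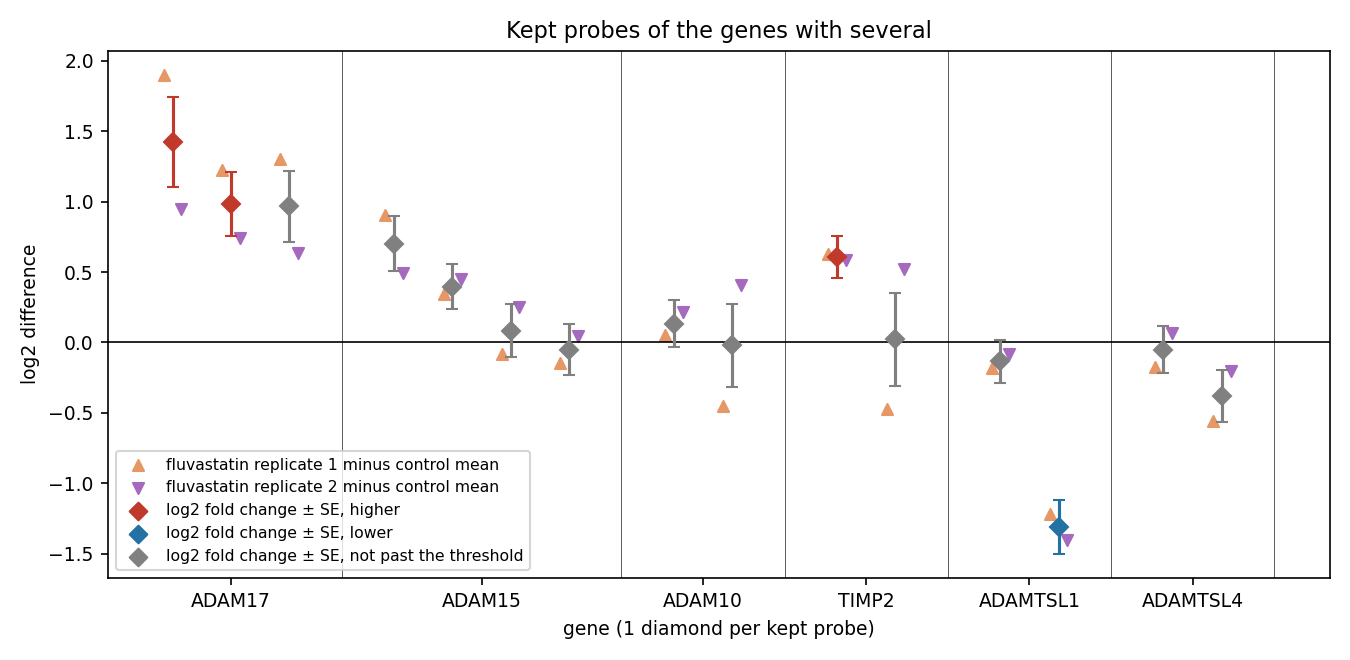
Log2 difference from control (vertical axis) for every kept probe of 6 genes with several kept probes. Diamonds are log2 fold changes ± SE and triangles each fluvastatin array minus the control mean. The 3 ADAM17 probes lie between 0.97 and 1.42, whereas the TIMP2 probes (0.61 and 0.02) and the ADAMTSL1 probes (-0.13 and -1.31) stand apart.

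The fluvastatin arrays differed from each other more than the control arrays did. The median absolute gap over the 35 member probes was 0.35 between the fluvastatin arrays and 0.13 between the controls, and over all probes kept it was 0.25 and 0.13. A gap of at least 1 between the fluvastatin arrays was found for 4 member probes (11.4%), MMP3 (1.80), MMP16 (1.31), MMP1 (1.26) and ADAMTS9 (1.13), against 2.77% of all probes kept. Fluvastatin replicate 1 was the higher array for 20 of 35 member probes (57.1%), near the 50.6% of all probes kept. It was also the higher array for 6 of the 7 that rose, with ADAM8 the exception. The share over all probes that rose was not taken.

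**Figure D4:**
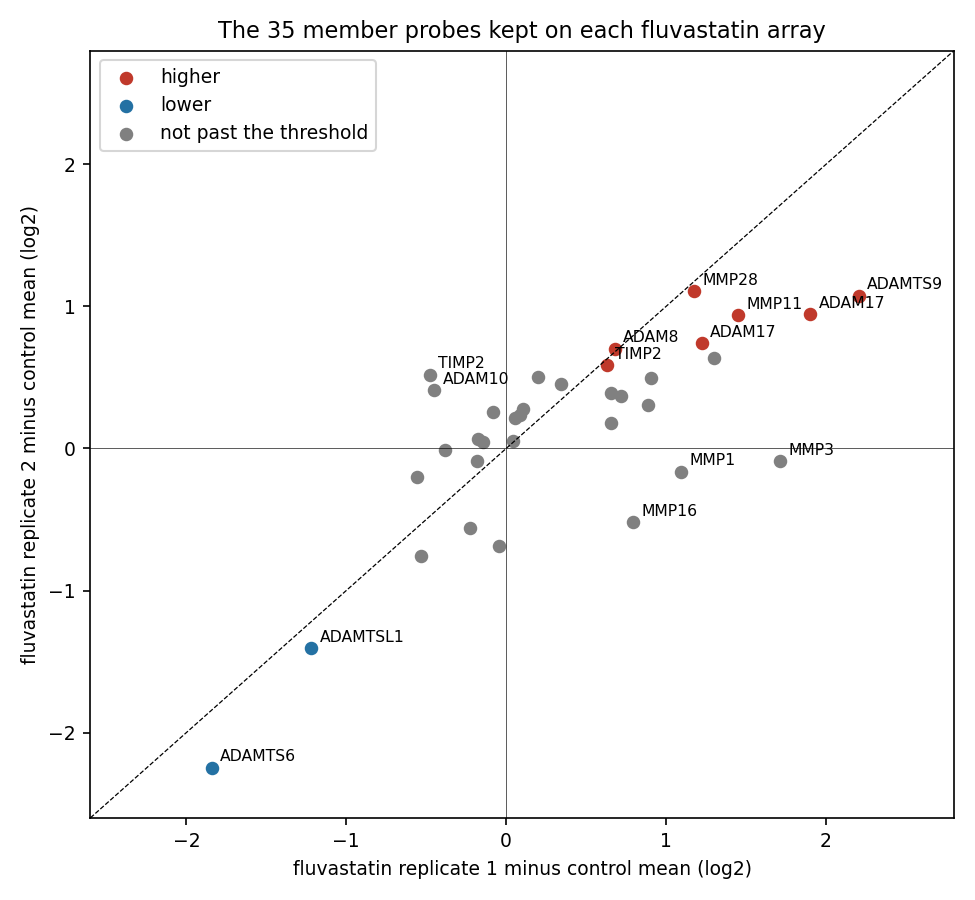
Each of the 35 member probes kept, as fluvastatin replicate 1 minus the control mean (horizontal axis, log2) against fluvastatin replicate 2 minus the control mean (vertical axis, log2). The dashed line marks equal change. MMP1, MMP3 and MMP16 lie well above 0 on replicate 1 and below 0 on replicate 2, while ADAMTS6 and ADAMTSL1 lie near the line on both.

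Genes that carry ADAM10 and ADAM17 to the surface, and proteins that these enzymes shed, were listed alongside the members. Of 10 trafficking partners, all kept, 3 rose, 0 fell and 7 did not pass, against 10.5% of all genes higher and 9.65% lower. TSPAN15, a tetraspanin that escorts ADAM10, read 7.18 and 7.67 with fluvastatin, against 5.42 and 5.30 in controls (log2 fold change 2.07 ± 0.21, adjusted p = 0.00842). TSPAN10, of the same tetraspanin group, read 6.26 and 7.35 with fluvastatin, against 5.10 and 4.96 in controls (1.78 ± 0.36, adjusted p = 0.0286). It was above background on both treated arrays and on 1 of 2 controls. TSPAN10 needed the fluvastatin arrays to meet the filter, so its selection and its direction are not independent. RHBDF2 (iRhom2), which brings ADAM17 out of the endoplasmic reticulum, rose by 0.85 ± 0.15 (adjusted p = 0.0220), with 0.45 and 0.96 as the lowest and highest values of its other kept probes, while its relative RHBDF1 was at 0.27 (adjusted p = 0.267). Without control replicate 1, and likewise without control replicate 3, only the TSPAN15 call remained of these 3.

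Of 20 genes of shed proteins measured, 3 rose and 4 fell, against 10.5% higher and 9.65% lower among all genes. The EGF receptor ligand HBEGF read 7.86 and 8.18 with fluvastatin, against 10.48 and 10.48 in controls, the largest change among these genes (-2.46 ± 0.18, adjusted p = 0.00711). TGFA, another ligand of that receptor, fell by 1.24 ± 0.24 (adjusted p = 0.0265, and -0.71 on its other kept probe). Syndecan-1 (SDC1) fell by 0.84 ± 0.19 (adjusted p = 0.0364, and -0.48 on its other kept probe). N-cadherin (CDH2) read 4.85 and 4.97 with fluvastatin, against 6.59 and 6.57 in controls (-1.67 ± 0.15, adjusted p = 0.00734). The lowest signal of any detected probe on those fluvastatin arrays was 4.83 and 4.90. The size of the CDH2 fall is therefore uncertain. The membrane-bound chemokine CX3CL1 rose by 1.76 ± 0.19 (adjusted p = 0.00915). The neural adhesion molecule L1CAM rose by 1.54 ± 0.23 (adjusted p = 0.0154, and 0.31 on its other kept probe). The tumour necrosis factor receptor gene TNFRSF1B read 8.06 and 9.38 with fluvastatin, against 6.59 and 6.67 in controls (2.09 ± 0.42, adjusted p = 0.0285). Its treated arrays lay far apart, while its controls nearly coincided. HBEGF and TGFA are both ligands that ADAM17 sheds. Of the 7 calls, 3 held without control replicate 1 and 3 without control replicate 3, those of HBEGF, CDH2 and CX3CL1. Shedding itself, a protein event, was not measured.

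**Figure D5:**
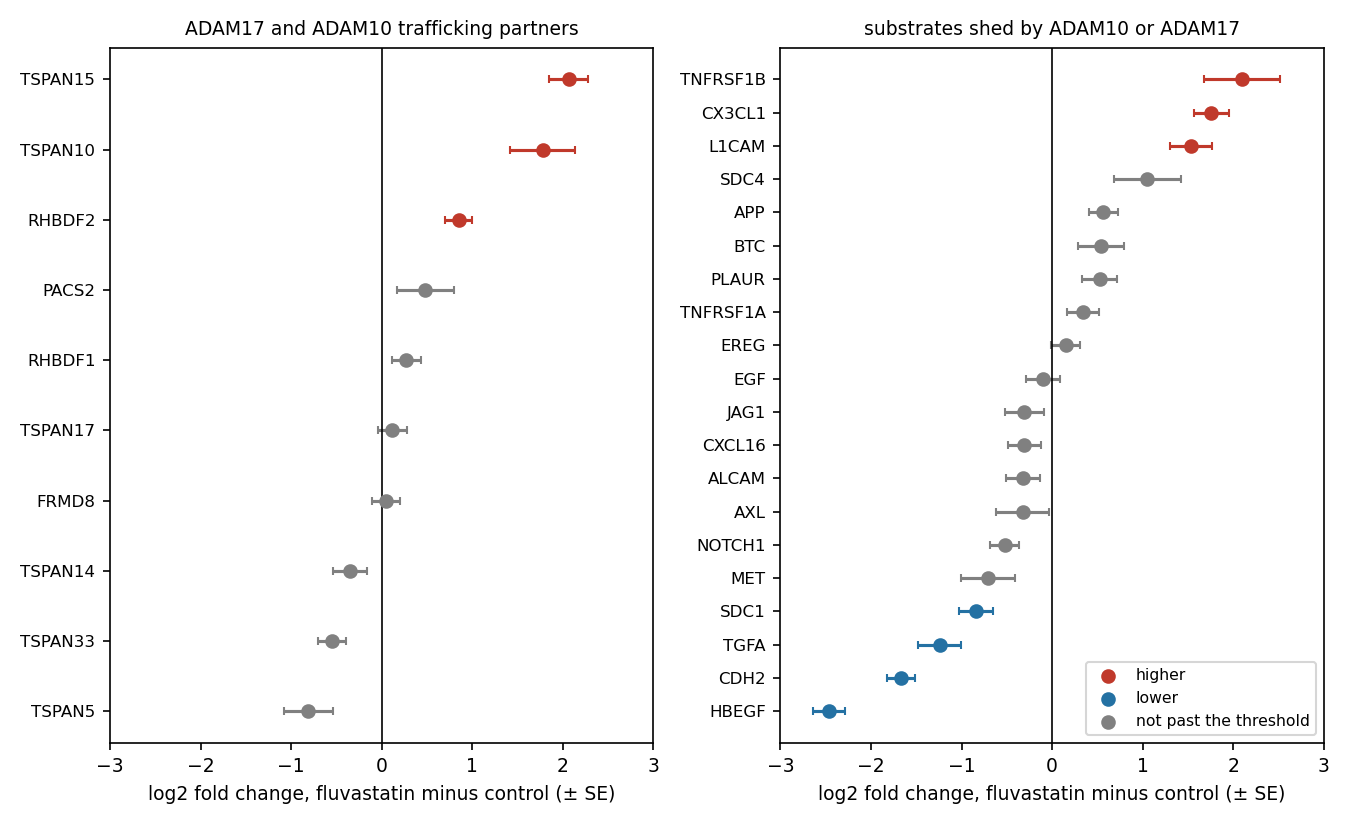
Log2 fold change ± SE, fluvastatin minus control (horizontal axis), of the kept genes among the ADAM10 and ADAM17 trafficking partners (left) and the shed substrates (right). TSPAN15 (2.07) and TNFRSF1B (2.09) are at the upper ends, and HBEGF (-2.46) is the lowest substrate.

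Of 12 other regulators of MMP activity that were measured, 1 rose and 2 fell, a share near the 20.1% of all genes that passed. LCN2, a lipocalin that binds MMP9, read 11.58 and 11.20 with fluvastatin, against 10.41 and 10.31 in controls (1.02 ± 0.19, adjusted p = 0.0241). The matrix protein THBS1 (-1.15 ± 0.15, adjusted p = 0.0133) and the protease inhibitor TFPI2 (-1.15 ± 0.25, adjusted p = 0.0333) fell. All 3 calls were lost when either control array was left out. The MMP inducer BSG (0.58, adjusted p = 0.0801), the membrane-anchored inhibitor RECK (0.11, adjusted p = 0.721) and the convertase FURIN (0.12, adjusted p = 0.631) did not pass. Of 3 measured ADAMTS substrates and ADAMTSL partners, the brain proteoglycan BCAN alone passed (-0.89 ± 0.20, adjusted p = 0.0382). It read 5.05 and 4.61 with fluvastatin, against 5.76 and 5.67 in controls. BCAN was above background on 1 of 2 fluvastatin arrays and needed the control arrays to meet the filter. That call was lost in 6 other settings, among them no background correction. Versican (VCAN) was on 0 of 4 arrays.

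SP1 and members of the AP-1, ETS and RUNX families made up 14 measured transcription factors, many of which act on MMP promoters. Of these 2 rose and 4 fell, against 10.5% higher and 9.65% lower among all genes. The AP-1 subunit FOSL1 read 8.59 and 7.99 with fluvastatin, against 10.22 and 10.21 in controls (-1.92 ± 0.23, adjusted p = 0.0110), while the subunit JUND rose by 0.94 ± 0.16 (adjusted p = 0.0213). The ETS factors ETV4 (-1.11), ETV5 (-0.77) and ELK3 (-0.76) fell, with adjusted p of 0.0236, 0.0468 and 0.0448, and RUNX2 rose by 1.32 ± 0.23 (adjusted p = 0.0208; 0.34 on its other kept probe). With control replicate 1 left out, or control replicate 3, only the FOSL1 call remained, and ETV5 and ELK3 were not called under median scaling.

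Promoters were searched for the AP-1 letters TGANTCA, which read the same on both strands, and for a pair of ETS cores (GGAA, any 4 bases, then GGAA) on both strands. The RefSeq promoter table (GRCh38.p14), which holds 250 bases before to 50 after each gene's start, had 43 promoters for 42 of the 70 genes. The AP-1 letters were in 4 of the 43 (9.30%), against 7.71% of all 35116 promoters, and all 4 belonged to genes at background here: MMP7, MMP10, MMP20 and ADAMTS12. None of the 18 promoters of kept members held them. Other kept members, MMP1 and MMP3 among them, had no entry and were not searched. The ETS pair was in 3 of the 43 (6.98%), those of ADAM10, TIMP4 and MMP20, against 2.48% of all promoters. MMP20 alone held both motifs, which did not overlap. No match in a window says only that these letters are not there.

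The promoters of MMP10 (chr11:102780579-102780878, minus strand) and MMP7 (chr11:102530698-102530997, minus strand), genes at background in both conditions, are shown because each holds the AP-1 letters, in capitals, starting 67 bases before the transcription start:
MMP10: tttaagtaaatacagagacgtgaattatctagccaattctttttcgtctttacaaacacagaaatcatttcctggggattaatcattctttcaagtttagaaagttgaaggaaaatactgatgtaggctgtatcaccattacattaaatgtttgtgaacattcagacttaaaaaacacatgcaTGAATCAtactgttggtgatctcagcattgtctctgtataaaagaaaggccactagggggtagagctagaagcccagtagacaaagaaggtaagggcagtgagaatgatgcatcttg
MMP7: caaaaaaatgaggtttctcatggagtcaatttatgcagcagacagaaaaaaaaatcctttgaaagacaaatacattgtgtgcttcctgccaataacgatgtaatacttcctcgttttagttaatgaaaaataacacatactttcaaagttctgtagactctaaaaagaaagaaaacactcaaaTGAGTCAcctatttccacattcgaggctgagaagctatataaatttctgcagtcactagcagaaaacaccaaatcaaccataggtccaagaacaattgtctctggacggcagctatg

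The promoters of 2 genes that fell, ADAMTS6 (chr5:65481871-65482170, minus strand) and ADAMTSL1 (chr9:18473903-18474202, plus strand), and of 2 that rose, ADAM17 (chr2:9555781-9556080, minus strand) and MMP11 (chr22:23772599-23772898, plus strand), are shown for comparison and hold neither motif, so no letter is in capitals:
ADAMTS6: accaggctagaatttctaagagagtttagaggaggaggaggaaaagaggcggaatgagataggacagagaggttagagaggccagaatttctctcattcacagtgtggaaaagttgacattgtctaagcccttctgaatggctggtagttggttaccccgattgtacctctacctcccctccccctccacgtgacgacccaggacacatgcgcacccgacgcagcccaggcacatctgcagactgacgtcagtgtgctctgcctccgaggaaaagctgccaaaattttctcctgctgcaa
ADAMTSL1: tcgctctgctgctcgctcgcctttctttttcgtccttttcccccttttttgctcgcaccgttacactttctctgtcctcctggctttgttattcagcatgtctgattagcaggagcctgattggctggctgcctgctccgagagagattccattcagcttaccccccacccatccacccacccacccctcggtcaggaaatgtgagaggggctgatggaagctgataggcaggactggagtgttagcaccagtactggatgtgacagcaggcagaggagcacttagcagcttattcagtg
ADAM17: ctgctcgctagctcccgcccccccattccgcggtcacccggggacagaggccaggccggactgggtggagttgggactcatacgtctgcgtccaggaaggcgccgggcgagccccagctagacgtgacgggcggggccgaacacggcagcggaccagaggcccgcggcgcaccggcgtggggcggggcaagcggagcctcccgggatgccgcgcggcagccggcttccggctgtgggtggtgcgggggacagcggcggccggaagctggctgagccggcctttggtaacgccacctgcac
MMP11: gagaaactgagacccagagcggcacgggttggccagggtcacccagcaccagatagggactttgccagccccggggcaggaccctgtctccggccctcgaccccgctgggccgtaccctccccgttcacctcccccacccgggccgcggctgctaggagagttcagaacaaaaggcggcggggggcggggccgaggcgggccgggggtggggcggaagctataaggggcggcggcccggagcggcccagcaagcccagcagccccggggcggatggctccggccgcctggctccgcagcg

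Of the genes that rose, ADAMTS9, MMP28 and TIMP2 had no entry. The G and C content was 52.0% for ADAMTS6 and 54.0% for ADAMTSL1, the genes that fell, against 74.7% for ADAM17, 74.3% for MMP11 and 74.0% for ADAM8, which rose. These 5 promoters are described without a test. Promoters of kept members had a median of 73.3% (n = 18), those of members at background 63.7% (n = 25) and all promoters 58.7%. MMP10 had 36.3% and MMP7 35.7%.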

How the data were processed

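RNA of MDA-MB-231 cells was labelled with biotin (MessageAmp, per the labels' protocols) and hybridised to Illumina bead arrays. The deposited table gives 1 linear intensity per probe and sample, with no background subtraction visible, and per the file headers a detection p-value after each. The authors' processed table holds log2 values of nearly equal distribution, as quantile normalization gives. Its package is not given in the sources used here, and the submitters' processing notes name R 3.1.0. Depth does not apply to arrays, whose number limits the precision. The groups came from the sample titles.

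The neqc function of limma 3.58.1 (R 4.3.3) turned intensities into log2 values (background from the detection p-values, offset 16, quantile normalization), on the 4 independent arrays. The filter, 2 or more arrays with a detection p below 0.05, left 21986 probes. All were fitted together by limma (lmFit and eBayes, two-sided; 2 residual and 3.72 prior degrees of freedom), with Benjamini-Hochberg adjustment over them and a threshold of 0.05. The steps were tested on simulated data. Symbols came from the platform annotation (30113 probes with 1 symbol, 8 with several, 17110 with none), and 70 of 70 member symbols matched the RefSeq gene table of GRCh38.p14 through gene identifiers.

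The members and the lists of regulators, partners, substrates, factors and markers were chosen with earlier results of these data known. Members named with values were those past the threshold or changed at least 2-fold, every TIMP, a list of well-known members, and the 5 kept genes of highest mean. From each list up to 6 genes past the threshold were named, by p. Other genes were named after their values were seen. Protein sequences were not used here. Alternatives were other background corrections, offsets, scalings, filters and variance models, the authors' values, all 5 columns, and each array left out.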

Additional observations from a re-analysis of the deposited data

How the results depend on the processing

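The count of 9 member probes past the threshold was 9 to 12 with an offset of 50, with no background correction, with cyclic loess, with the authors' processed values, with detection on all 4 arrays, with a detection p under 0.01 and with an intensity trend. The 9 of 26 with detection on all 4 arrays came from a fit of such probes alone, and the 6 of 26 given above from the main fit. Of those 9 calls, 6 were shared with the main fit. The called probes of MMP11, MMP28 and ADAMTSL1 were not tested there, and further probes of ADAM15, ADAM17 and ADAM19 passed. The count was 6 when a 2-fold change was also asked for. It was 14 with median scaling, 16 with all 5 deposited columns and 5 of 113 with no filter on dim probes. Leaving out 1 array gave 1 to 16. The count over all probes kept, 3722, was 8927 with all 5 columns and 433 to 7046 leaving out 1 array. The median of the members, 0.19, was 0.42 with median scaling, 0.14 with the authors' values, 0.0473 with no filter, 0.41 with detection on all 4 arrays, 0.41 with a detection p under 0.01, and 0.19 to 0.33 leaving out 1 array. Median scaling moved the median of all probes kept by 0.19, and the share of calls that were higher to 77.7% from 51.0% over all probes and to 85.7% from 77.8% over members. No result past the threshold as reported changed sign under another setting. MMP3, not past it, was at -0.08 without fluvastatin replicate 1 and passed with median scaling (adjusted p = 0.00770). The cause of these shifts was not tested. The all-5-column fit adds control replicate 2, a mean, as a sample. By the mean of all kept probes of a gene, 8 of 26 member genes passed, as many as with the probe of highest mean.

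No paired analysis was possible because the independent arrays of both groups share only 1 replicate number. Changes of dim member probes (MMP11, MMP28, ADAMTSL1) depend on the background correction and offset. Among the listed genes, CDH2 and BCAN with fluvastatin and TSPAN10 in controls also read near background. The sizes of their changes carry the same limit. With 2 arrays a group a gene that did not pass is undecided.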

Other observations

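Member probes detected on a single array were not tested, and 14 probes of 12 genes were in this state. The value farthest from the rest was that of ADAMTS14, a procollagen-processing protease, which read 4.79 and 5.77 with fluvastatin, against 4.68 and 4.62 in controls. Fluvastatin replicate 2 alone was above background. ADAMTS3, of the same procollagen N-proteinase group, read 4.31 and 4.59 with fluvastatin, against 5.04 and 4.42 in controls, with control replicate 1 alone above background. For 8 of the 14 probes the single array was a fluvastatin array and for 6 a control array.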
